A study of Mus musculus with 12 samples.

Results

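The transcripts of 10 genes of the insulin-like growth factor system were followed in pituitaries taken from mice at birth (postnatal day 0), without their posterior lobe. The genes were chosen by symbol, as the rows of the deposited per-library table that carry these names, and they are 10 of the 27129 genes listed there. They comprise 2 ligands (Igf1 and Igf2), 2 receptors (Igf1r and Igf2r) and 6 binding proteins (Igfbp2 to Igfbp7). All 10 passed the filter on low values, FPKM of at least 1 in at least 6 libraries. The 6 control glands had the genotype Prop1cre;Isl1+/fx, with 1 floxed and 1 intact allele of Isl1, which encodes a LIM-homeodomain transcription factor. The 6 mutant glands were Prop1cre;Isl1fx/-, with 1 floxed and 1 null allele. Both groups carried Prop1cre, in which Cre recombinase is driven in pituitary progenitors, so the deletion of the floxed allele is directed at the lineage of those progenitors, while the null allele is present in every cell of the mutant animals. The comparison asks how transcript levels differ between the groups at birth.

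Insulin-like growth factors are secreted proteins related to insulin that promote growth and survival of cells. Both ligands signal through the tyrosine kinase receptor encoded by Igf1r. The product of Igf2r, also known as the cation-independent mannose 6-phosphate receptor, takes up IGF2 for degradation in lysosomes. Secreted binding proteins hold the ligands outside the cell and can limit or prolong their action, and proteases release the ligands from them. In the pituitary, IGF1 is known as a feedback signal that restrains growth hormone, and Igf2 and Igf2r are imprinted genes, expressed in most mouse tissues from the paternal and the maternal allele respectively.

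Igf2 (chromosome 7, 142650767 to 142670356, mm10, minus strand) was resolved by isoform in the authors' deposited isoform table. The start and first exon of each isoform were taken from GENCODE M21. The sequence before the most used start is shown because most Igf2 transcripts were assigned to it. The isoform that starts at 142657496 held most of the Igf2 transcripts in both groups. In the authors' deposited table it had 135 FPKM (fragments scaled by transcript length and by library depth) in control and 134 FPKM in mutant, which was 65.3% and 65.8% of the Igf2 total. The isoform with a first exon ending at 142659489 had 62.5 and 59.9 FPKM in the authors' deposited table, or 30.2% and 29.5%. The isoform with a first exon ending at 142661305 had 9.25 and 9.68 FPKM in that deposited table by the authors, or 4.47% and 4.76%. None of the 3 was marked as changed there, with a q-value of 0.9996 for each. These are single values per group with no replicate error, so start site usage was only described.

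The 250 bases before the most used start follow from RefSeq (GRCm38.p6, chromosome 7, minus strand, written 5′ to 3′), where a listed RefSeq start coincides with 142657496. The other 2 isoforms start at positions for which no RefSeq start coincides, so no sequence is shown for them. Capitals mark the GC box letters GGGCGG, the CCAAT box letters ATTGG and the TATA letters TATAAA, each searched on both strands with no overlap between the motifs found.
Promoter at chr7:142657497-142657746: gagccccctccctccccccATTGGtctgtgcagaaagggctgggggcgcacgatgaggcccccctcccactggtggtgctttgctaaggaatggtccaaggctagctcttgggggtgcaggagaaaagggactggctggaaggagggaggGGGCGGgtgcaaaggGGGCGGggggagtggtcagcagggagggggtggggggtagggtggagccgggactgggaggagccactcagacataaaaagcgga
This window held 2 GC boxes, 1 CCAAT box and no TATA match in these letters, with 66.0% G and C and 6 CpG dinucleotides. Over 32851 mouse promoter windows of the same length, GGGCGG was present in 32.7%, ATTGG in 33.8% and TATAAA in 12.4%, with a median of 6 CpG dinucleotides and 52.4% G and C. A motif match describes letters in the window and not a bound site.

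Depth was alike in both groups, with 46204920 to 51535425 fragments in control libraries and 45415453 to 61533576 in mutant libraries. Values are given as CPM, which sets the fragments of a gene against the library total after TMM scaling, and differences as log2 fold changes of mutant over control from edgeR's quasi-likelihood test, with Benjamini-Hochberg adjustment over 15246 genes and a threshold of 0.05. Isl1 itself had 35.4 ± 3.04 CPM in control and 59.3 ± 4.98 CPM in mutant (SD over 6 libraries each). It was thus higher in mutant by 0.74 on the log2 scale (edgeR adjusted p 8.71e-06). These counts pool all exons, so they do not check which alleles were deleted. Controls 0 and 3 stood apart from the other controls in several of the genes below. In RNA pooled from all cells of a sample, fewer cells of a type and less RNA per cell cannot be told apart.

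None of the 10 genes passed the threshold (0 of 10, where 7.05% of all genes tested did). Igf2r came nearest, and Igfbp2 was the only other one with an unadjusted edgeR p under 0.05, so 2 of 10 reached that mark against 22.3% of all genes. Groups overlapped for all 10, while 4.28% of all genes tested had groups that did not overlap. Mean levels were higher in mutant for 4 genes (Igf1r, Igf2r, Igfbp2 and Igfbp3) and lower for 6. The median log2 fold change was -0.03 over the 10 genes and -0.004 over all genes tested. DESeq2 called 1 of the 10, Igf2r, and 11.4% of all genes.

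**Figure D1:**
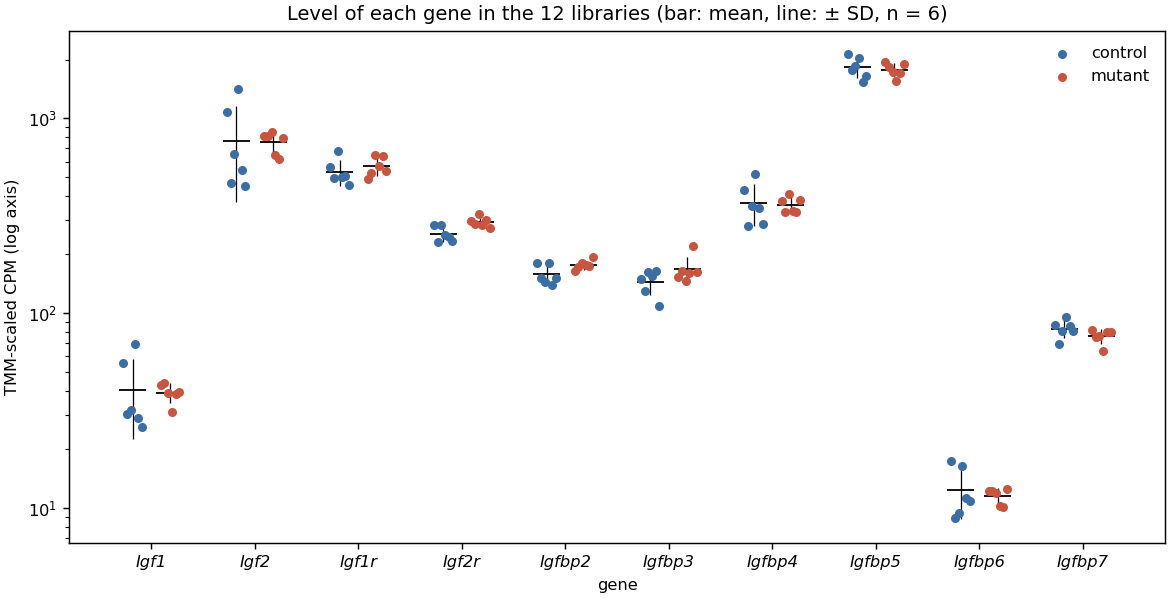
TMM-scaled CPM of each gene (log axis) in 6 control and 6 mutant libraries, 1 point per library, with a bar at the mean and a line of ± 1 SD. The groups overlap for every gene, and the control libraries are spread more widely than the mutant ones for Igf1, Igf2, Igfbp4 and Igfbp6.

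Positions below are the intervals listed in the files (mm10). Igf1 (chromosome 10, 87826376 to 87937047) encodes the ligand that growth hormone induces in liver and other tissues. Its lowest, median and highest levels were 25.9, 31.1 and 69.3 CPM in control and 31.0, 39.2 and 43.8 CPM in mutant. All mutant libraries lay within the control range, and controls 3 and 0, at 69.3 and 55.5 CPM, were the highest of all 12 libraries. The means were 40.3 ± 17.8 and 39.0 ± 4.49 CPM (SD, n = 6), with a log2 fold change of -0.05 (SE 0.221, 95% interval -0.52 to 0.43) and an edgeR adjusted p of 0.930. On a linear scale that interval runs from 0.696-fold to 1.35-fold. In the authors' deposited isoform table, 5 isoforms of Igf1 were listed, and those with the 52-base exon, which changes the carboxy-terminal extension of the precursor, made up 19.2% of Igf1 FPKM in control and 17.4% in mutant. Those shares rest on 1.15 and 1.01 FPKM in the authors' deposited table, single values per group with no replicate error, and are only described.

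Igf2 encodes the main fetal ligand. Its lowest, median and highest levels were 450, 599 and 1420 CPM in control and 617, 801 and 851 CPM in mutant. Controls 3 and 0 had 1420 and 1072 CPM, above every mutant library, while the other 4 controls lay between 450 and 654 CPM. The highest control was 3.16 times the lowest, and the highest mutant library was 1.38 times the lowest. Means nearly coincided at 767 ± 394 and 755 ± 97.8 CPM (SD, n = 6), with a log2 fold change of -0.02 (SE 0.257, 95% interval -0.58 to 0.53) and an edgeR adjusted p of 0.973. Without controls 0 and 3 the log2 fold change was 0.52 for Igf2 and 0.42 for Igf1, with edgeR adjusted p of 0.0274 and 0.0203. In that fit 4 of the 10 genes passed (Igf1, Igf2, Igf2r and Igfbp2), where 6.09% of all genes tested did. Those 2 libraries were set aside after their values were seen, on a marker sum that moved with these genes among the controls. These p-values are thus a description and not a test.

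Igf1r (chromosome 7, 67952256 to 68233667) encodes the signalling receptor. Its lowest, median and highest levels were 452, 501 and 679 CPM in control and 489, 553 and 646 CPM in mutant. Control 2 was the highest library and control 5 the lowest, with every mutant library between them. The means were 531 ± 80.7 and 567 ± 63.7 CPM (SD, n = 6), which differ on the log2 scale by 0.09 (SE 0.0956, 95% interval -0.11 to 0.30) with an edgeR adjusted p of 0.622. Single libraries moved this value: it was 0.18 without control 2, and 0.0507, 0.0560 and 0.0561 without control 5, mutant 2 and mutant 4.

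Igf2r (chromosome 17, 12682405 to 12868143), the receptor that clears IGF2, was the gene with the smallest p among the 10. Control libraries had 233, 249 and 285 CPM as lowest, median and highest values, and mutant libraries had 274, 291 and 323 CPM. All 6 mutant libraries lay above the control mean and 4 of them above the highest control, while controls 0 and 2, at 283 and 285 CPM, lay inside the mutant range. The means were 255 ± 23.3 and 294 ± 17.3 CPM (SD, n = 6), with a log2 fold change of 0.20 (SE 0.0579, 95% interval 0.08 to 0.33), or 1.15-fold. Its edgeR adjusted p of 0.0528 missed the threshold, and a two-sided exact permutation test of the group labels gave an unadjusted p of 0.0130. The call depended on the setting: DESeq2 gave an adjusted p of 0.0167, and over all alternatives the adjusted p ranged from 0.00986 to 0.188 while the log2 fold change stayed between 0.17 and 0.24. The antisense RNA Airn, known to silence the paternal copy of Igf2r in mouse, starts inside this locus, and the library kit keeps no strand. Its row with the larger counts had up to 46.6% as many fragments as Igf2r, with 92.5 ± 14.3 CPM in control and 102 ± 8.81 CPM in mutant (SD, n = 6) and an edgeR adjusted p of 0.374.

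**Figure D2:**
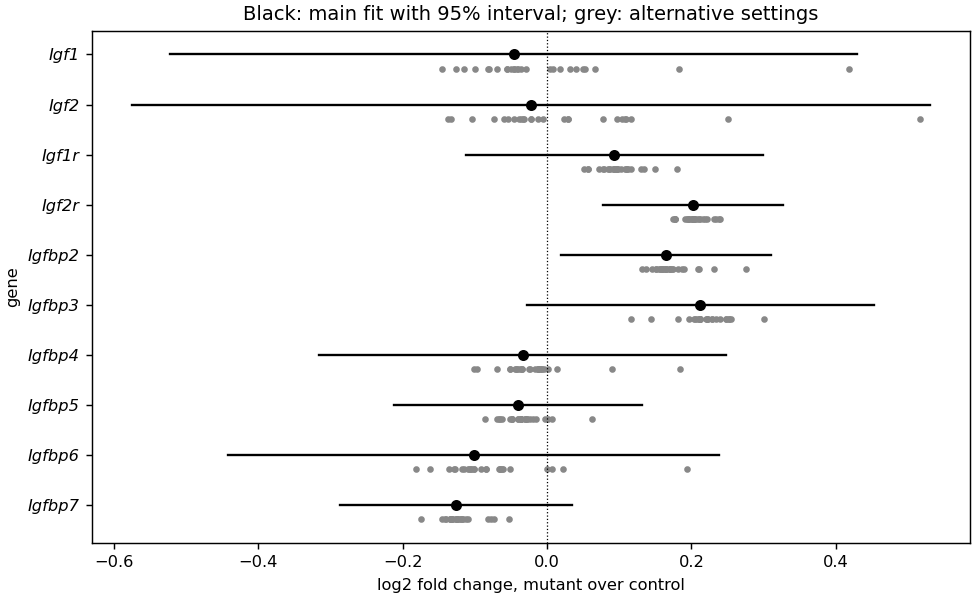
Log2 fold change of mutant over control for each gene: black points are the edgeR values with their 95% intervals, and grey points are the values under the alternative settings. The points of Igf2r all lie between 0.17 and 0.24, while those of Igf1 and Igf2 fall on both sides of 0 and reach 0.42 and 0.52 without controls 0 and 3.

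Among the binding proteins, Igfbp5 (chromosome 1, 72858064 to 72874865, minus strand), which also binds extracellular matrix, had the highest level. Its lowest and highest values were 1539 and 2126 CPM in control and 1548 and 1952 CPM in mutant, and controls 0 and 3, at 2126 and 2036 CPM, were above every mutant library. Means were 1830 ± 224 and 1779 ± 150 CPM (SD, n = 6), with a log2 fold change of -0.04 (SE 0.0798) with an edgeR adjusted p of 0.820 and a 95% interval of -0.21 to 0.13. Igfbp2 (chromosome 1, 72824479 to 72852471, plus strand), a carrier abundant in fetal tissues, ends 5457 bases from the end of Igfbp5 on the opposite strand. Its lowest, median and highest levels were 140, 151 and 182 CPM in control and 164, 175 and 194 CPM in mutant. Controls 0 and 3, at 182 and 180 CPM, reached into the mutant range, and the other 4 controls lay below every mutant library. The means were 158 ± 18.4 and 177 ± 10.2 CPM (SD, n = 6), with a log2 fold change of 0.16 (SE 0.0676, 95% interval 0.02 to 0.31) with an edgeR adjusted p of 0.167. Without those 2 controls the log2 fold change was 0.28, with an adjusted p of 0.00481 that is subject to the same limit as for Igf2.

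Igfbp3 (chromosome 11, 7206090 to 7213923), the main carrier in adult serum, had 109, 152 and 164 CPM as lowest, median and highest control values and 146, 161 and 222 CPM in mutant. Mutant 4 held the highest value by a wide gap, and control 5 the lowest. The means were 145 ± 21.4 and 168 ± 27.3 CPM (SD, n = 6), with a log2 fold change of 0.21 (SE 0.112) with an edgeR adjusted p of 0.285. The authors' deposited table gave Igfbp3 a q-value of 0.0377 and did not mark it, since marking there also asked for a fold of at least 1.5. Without mutant 4 the log2 fold change was 0.12.

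Igfbp4 (chromosome 11, 99041259 to 99052643) encodes a binding protein that holds back the ligands until the protease PAPP-A cleaves it. It had 368 ± 89.6 CPM in control and 360 ± 34.0 CPM in mutant (SD, n = 6), with a log2 fold change of -0.03 (SE 0.131) with an edgeR adjusted p of 0.913. Controls 3 and 0, at 515 and 428 CPM, were the highest of all 12 libraries, and controls 1 and 5, at 281 and 285 CPM, the lowest. Igfbp6 (chromosome 15, 102144185 to 102149512), which prefers IGF2, was the lowest of the binding proteins. Its means were 12.4 ± 3.64 and 11.5 ± 1.07 CPM (SD, n = 6), with a log2 fold change of -0.10 (SE 0.158) with an edgeR adjusted p of 0.763, and again controls 0 and 3 were the highest, at 17.4 and 16.4 CPM. Igfbp7 (chromosome 5, 77310483 to 77408045), a low-affinity relative found in vessels, was lower than the control mean in all 6 mutant libraries, with 83.2 ± 8.83 and 76.3 ± 6.68 CPM (SD, n = 6). That difference, a log2 fold change of -0.13 (SE 0.0747), did not pass, with an edgeR adjusted p of 0.350, and it was -0.07 without mutant 3 and -0.08 without control 3. Its listed interval also holds Polr2b, a subunit gene of RNA polymerase II that fell by 0.10 on the log2 scale (edgeR adjusted p 0.0300, lost under 16 of 26 alternatives), and without strand the reads of any overlapping ends cannot be told apart.

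Per transcript length, the order of mean levels over the 12 libraries was led by Igfbp5 at 304 FPKM, followed by Igf2 at 205, Igfbp4 at 186 and Igfbp2 at 141 FPKM. Below them came Igfbp7 at 83.6, Igfbp3 at 67.3 and Igf1r at 45.0 FPKM, and then Igf2r at 29.9, Igfbp6 at 10.4 and Igf1 at 5.91 FPKM. Igf2 was thus the ligand with much the higher level, and the library ranges of Igf2 and Igf1 did not overlap. Neighbours in the order had ranges that overlapped except for Igfbp2 with Igfbp7, Igf1r with Igf2r, and Igf2r with Igfbp6. Igf2 and Igfbp4 could not be ordered within their spread, since Igf2 was the higher in 7 of 12 libraries. The FPKM of both libraries numbered 0 relate differently to their counts for some genes, by 1.22 and 1.28 times for Igf1, and the order was the same without them.

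The binding proteins summed to 791 ± 98.2 FPKM in control and 794 ± 39.4 FPKM in mutant (SD, n = 6). The highest sums were those of controls 3 and 0, at 945 and 874 FPKM, while the other 4 controls lay between 702.5 and 780.0 FPKM. Mutant libraries lay between 731 and 853 FPKM, and 5 of the 6 were above those 4 controls. Igfbp5 made up 39.1% ± 2.44 of that sum in control and 37.7% ± 1.84 in mutant, and Igfbp4 23.6% ± 2.76 and 23.1% ± 1.66. Igfbp2 held 16.9% ± 1.12 in control and 18.7% ± 1.65 in mutant. Igfbp3 held 7.93% ± 1.13 and 9.12% ± 1.52, and Igfbp7 11.1% ± 0.894 and 10.02% ± 0.577. These shares are a description. Mutant minus control was 1.84 percentage points for Igfbp2, with 1.45 to 2.45 when 1 library was left out. The FPKM of Igfbp2 relate to its counts by 0.914 times in control 0 and 0.884 times in mutant 0, against 0.993 to 1.01 elsewhere. Mutant 0 had an Igfbp2 share of 15.7%, against 18.6% to 20.7% in the other mutant libraries. For Igfbp5 it was -1.36, with -2.01 without control 4 and -0.73 without control 1, and for Igfbp3 it was 1.18, with 0.62 without mutant 4.

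**Figure D3:**
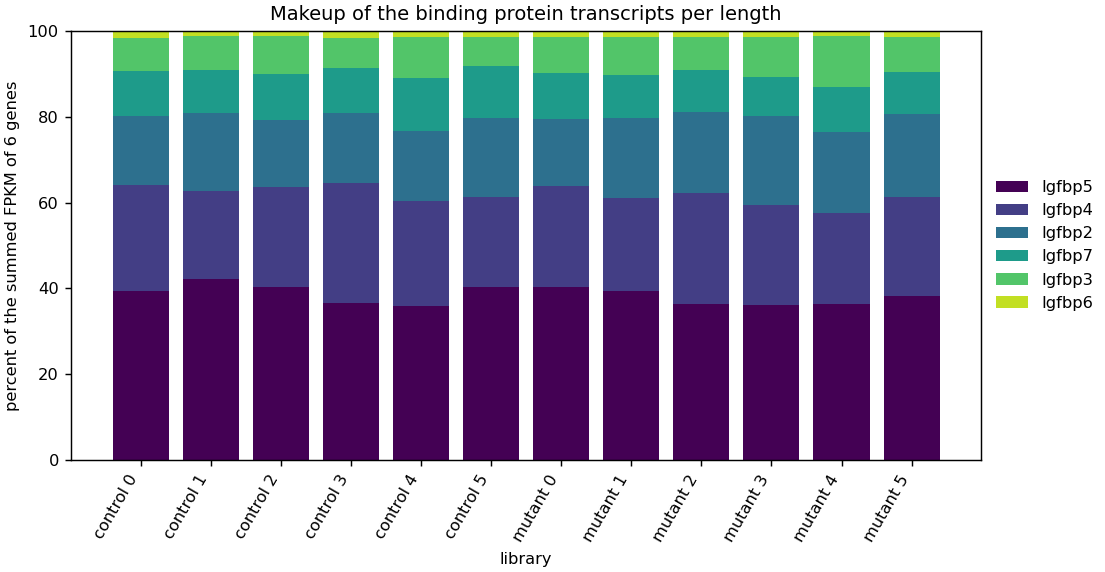
Percent of the summed FPKM of the 6 binding protein genes that each gene took, with 1 stacked bar for each of the 12 libraries. Igfbp5 is the largest block in every library, with group means of 39.1% in control and 37.7% in mutant, and Igfbp6 the smallest.

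The spread between control libraries was shared by several of the genes. The SD was higher in control than in mutant for 9 of the 10 genes, Igfbp3 being the exception. Controls 0 and 3 were the 2 highest controls for 7 genes. The share of all genes tested was not counted for either trait, so neither is read as particular to these genes. After the group mean was subtracted from each log2 value, the correlation over the 12 libraries was 0.95 between Igf1 and Igf2 and 0.95 between Igf2 and Igfbp4. For Igf1r and Igf2r r was 0.78. With Igf2, r was 0.11 for Igf1r and 0.47 for Igf2r, and with Igf1 it was 0.01 and 0.37. Among the 15 pairs formed by Igf1, Igf2, Igfbp2, Igfbp4, Igfbp5 and Igfbp6, r lay between 0.63 and 0.95, and without controls 0 and 3 between -0.25 and 0.82, so part of that likeness rests on those 2 libraries. The pair Igf1r and Igf2r had r = 0.83 without them. These correlations are given without p, because all genes share the libraries and their scaling.

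**Figure D4:**
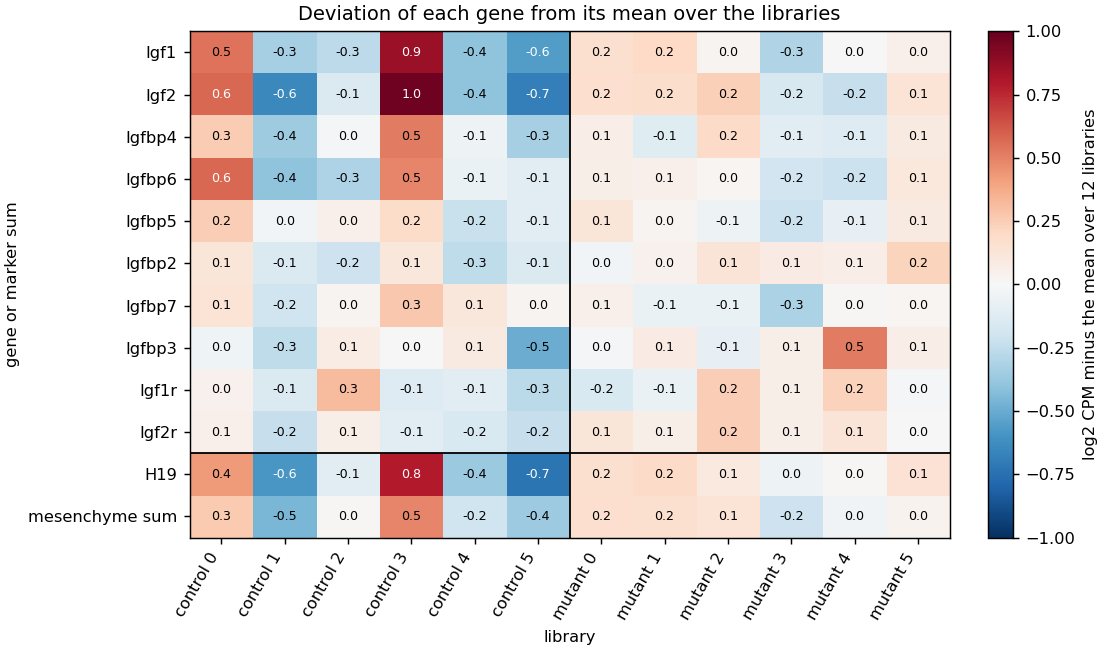
Log2 CPM of each gene minus its mean over the 12 libraries (colour and number), with H19 and the summed mesenchyme markers below the line. Controls 0 and 3 are above the mean and controls 1 and 5 below it for Igf1, Igf2, Igfbp4, Igfbp6, H19 and the marker sum, while control 3 is below the mean for Igf1r and Igf2r.

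Since no gene was called, likeness to other genes was examined for Igf2, Igf2r and Igf1r, a choice made after their values were seen. Over 10468 genes with a mean of at least 10 CPM, those with the highest group-centred correlation with Igf2 over the 12 libraries were Cntfr (r = 0.984), H19 (0.981) and Sparc (0.981), and without controls 0 and 3 these were 0.93, 0.87 and 0.88. Those for Igf2r were Insr (0.934), Vasn (0.931) and Pdgfra (0.926), and those for Igf1r were Setd7 (0.97), Itch (0.962) and Rnf103 (0.955). H19 is the imprinted noncoding RNA gene next to Igf2, expressed from the maternal allele. Its row with counts had 1036 ± 454 CPM in control and 1100 ± 70.3 CPM in mutant (SD, n = 6), with an edgeR adjusted p of 0.864, and controls 3 and 0 were again the highest, at 1777 and 1382 CPM.

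The summed level of 8 markers of mesenchyme and fibroblasts, the cells of the connective tissue around and within the gland, moved with the ligands among the libraries. Of the 8 markers, 1 rose in mutant, Pdgfra, the receptor for platelet-derived growth factor A, from 200 ± 31.4 to 268 ± 21.1 CPM (SD over 6 libraries each), or by 0.43 on the log2 scale (edgeR adjusted p 0.0126, and 0.0604 without the libraries with high Xist). None fell, and the median over the 8 was 0.05. The summed level was 2831 to 5432 CPM in control and 3364 to 4363 CPM in mutant, with the highest sums in controls 3 and 0. Col1a1, Col1a2 and Col3a1 held most of it, with control means of 1061, 969 and 1333 CPM. The other markers had control means of 2.43 to 230 CPM, so the sum mostly follows these collagen genes. Within the control group, the log2 sum and log2 Igf2 had Pearson r = 0.98 (n = 6, exact permutation p = 0.00278, adjusted p = 0.0278 over 20 relations) and Spearman rho = 0.94 (exact permutation p = 0.0167, adjusted p = 0.167). Without the 2 libraries farthest from the median of the sum, r was 0.98. In the mutant group r was 0.84 (n = 6, exact permutation p = 0.0403, adjusted p = 0.125), which did not pass the adjustment. It was 0.49 without the 2 farthest libraries. Those were mutants 3 and 4, the mutant libraries with the lowest sums, so leaving them out also narrows the range. That value thus cannot show whether the relation is absent in mutant. The sum and the genes share the libraries and their scaling, and these relations were not among the planned tests. Their p-values, here and below, are thus a description.

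The relation to this marker sum differed in size from gene to gene. In control, r was 0.92 for Igf1 (n = 6, exact permutation p = 0.00833, adjusted p = 0.0486) and 0.985 for Igfbp4 (exact permutation p = 0.00139, adjusted p = 0.0278), and without the 2 farthest libraries 0.94 and 0.96. Spearman rho was 0.83 for Igf1 (exact permutation p = 0.0583, adjusted p = 0.194) and 1 for Igfbp4 (exact permutation p = 0.00278, adjusted p = 0.0556). Igf1 also had an adjusted p under 0.05 in mutant (r = 0.93, n = 6, exact permutation p = 0.00972, adjusted p = 0.0486), with rho = 0.89 (exact permutation p = 0.0333, adjusted p = 0.194). Its r was 0.63 without the 2 farthest libraries, so part of its size rests on them, with the same limit as for Igf2 in mutant. For the receptors, r was 0.34 in control and -0.31 in mutant for Igf1r, and 0.64 and 0.34 for Igf2r, none of which passed the adjustment. No Spearman coefficient of the 20 relations passed it. The 2 farthest controls left out above were controls 3 and 1, so control 0 stayed in. With the group mean subtracted, r with the log2 sum over 12 libraries and then over the 10 without controls 0 and 3 was 0.96 and 0.90 for Igf2. The same pair of values was 0.92 and 0.73 for Igf1, and 0.92 and 0.72 for Igfbp4. These are given as a description, with no p. The part of mesenchyme in the group comparison was not tested.

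**Figure D5:**
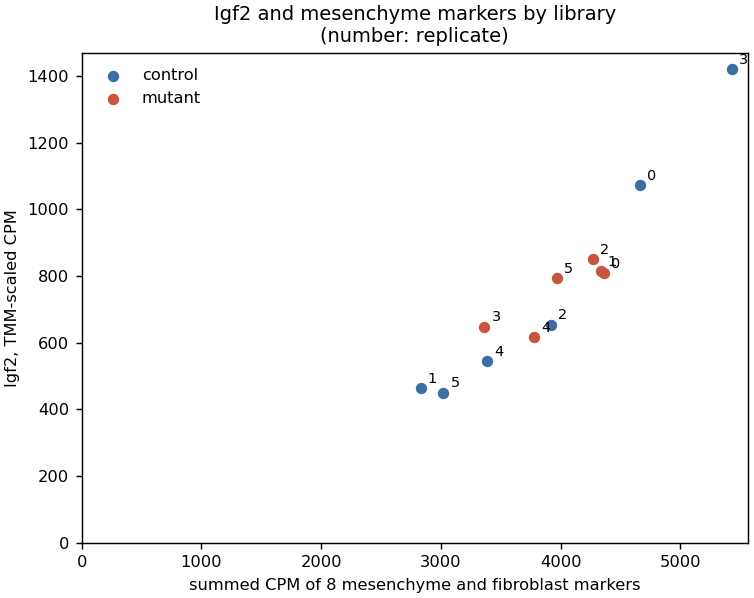
Igf2 in TMM-scaled CPM against the summed CPM of 8 mesenchyme and fibroblast markers, with 1 point per library numbered by replicate. The 6 controls span 2831 to 5432 CPM in markers and 450 to 1420 CPM in Igf2, and the 6 mutant libraries lie inside that span.

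Markers of other cell types were set beside these values. Of 7 endothelial markers 1 fell, Plvap (log2 fold change -0.26, edgeR adjusted p 0.0286, lost under 9 of 26 alternatives), with sums of 712 to 853 CPM in control and 690 to 771 CPM in mutant. Acta2 fell among 6 mural cell markers (-0.80, adjusted p 0.00455), and Runx2 rose as 1 of the 2 cartilage and bone markers tested (0.31, adjusted p 0.0105, lost under 4 of 25 alternatives). All 6 markers of basal epithelium rose, Krt5, Krt14, Krt15, Trp63, Dsc3 and Ly6d, from a sum of 10.4 to 14.4 CPM in control to 45.4 to 97.3 CPM in mutant. Among 8 hormone cell genes, Tshb and Cga fell, by 0.60 and 2.30 on the log2 scale. No marker of macrophages, pituicytes or erythroid cells passed the threshold in either direction. Pituicyte markers were still detected, although the posterior lobe was left out, with sums of 242 to 303 CPM in control and 239 to 301 CPM in mutant. Most of that came from Col25a1, with means of 187 and 178 CPM. The part of these cell types in the levels of the 10 genes was not tested.

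The wider pathway showed few calls. In 8 lists of 89 genes, 79 rows were tested, and 2 rose and none fell in edgeR, or 2.53% against 7.05% of all genes tested. The genes that rose were Igf2bp3 and Stc1. Igf2bp3 stood in the list of the Igf2 locus and RNA binding. All 8 rows tested in that list, from 7 genes with Airn in 2 rows, had values above 0, as had 7402 of all 15246 genes tested. The median log2 fold change of the list was 0.10, and no other row in it passed the threshold. Igf2bp3, an RNA-binding protein that binds Igf2 messenger RNA, had 19.6 ± 1.19 CPM in control and 23.3 ± 1.25 CPM in mutant (SD, n = 6), with a log2 fold change of 0.25 (SE 0.0501) with an edgeR adjusted p of 0.00760 and groups that did not overlap. Stc1, stanniocalcin-1, whose human protein inhibits PAPP-A, had 9.06 ± 0.996 and 11.2 ± 0.972 CPM (SD, n = 6), with a log2 fold change of 0.30 (SE 0.0822) with an edgeR adjusted p of 0.0419. Its call was lost under 16 of 25 alternatives, 9 of them fits without 1 library (any but controls 2 and 5 and mutant 1), with adjusted p from 0.00887 to 0.1503, while Igf2bp3 kept its call under 25 of 26.

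No gene of the signalling lists passed the threshold. This held for 10 tested receptor adaptors, 23 genes of PI3K, AKT and mTOR (median log2 fold change -0.02) and 8 genes of growth hormone signalling (median 0.02). It also held for 12 genes of mannose 6-phosphate sorting, the route that Igf2r serves, with a median of -0.01, and for the 8 tested relatives of the binding proteins, with a median of 0.05. Of the insulin ligands and receptors, Insr was tested and did not pass, Ins1 was at 0 in all 12 libraries, and Ins2 and Insrr missed the filter. Of 12 genes for carriers and proteolysis of binding proteins, 9 were tested, with a median of 0.05, and Igfbp1, Igfals and Adam28 missed the filter.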

How the data were processed

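RNA was sequenced from 12 newborn pituitaries, 6 per genotype group as labelled. The TruSeq RNA kit v2, named per the labels' protocols, does not mark strand. Cuffdiff 2.1.1, Cufflinks, Bowtie2 2.1.0, TopHat2 2.0.9 and FastQC 0.10.1, on the mm10 build, are listed per the submitters' processing notes. The authors' deposited per-library table holds estimated counts of fragments and FPKM, per the file headers; 89.99% to 90.41% of non-zero counts were whole, and the rest were rounded. It also has 12 columns of externally scaled fragments, left aside here. The authors' deposited comparison tables for genes and isoforms give an FPKM per group, a log2 fold change and a q-value.

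A gene was tested where FPKM reached 1 in 6 or more libraries (15246, with 11883 set aside) with edgeR 4.0.16 in R 4.3.3, TMM scaling and no covariate. Standard errors came from the fold change and its F statistic, and intervals are at 95%. Single genes were also tested with the exact two-sided permutation test of the group labels, whose smallest p is 0.00216. The edgeR test was checked on simulated data. Alternatives were DESeq2 1.42.0, limma 3.58.1 on log2(FPKM + 0.1, 1 or 5), other scalings and filters, a Y-linked covariate, leaving out the 3 libraries with high Xist, a block for the replicate number, and fits without single libraries or pairs of them. The fit without controls 0 and 3 was added after the data were seen. The series design calls the samples individual, and p-values measure the spread between them.

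Named were the 10 genes, every gene of the pathway and marker lists that was called, and marker genes at 0. Isl1 was given as the targeted gene. Cntfr, Sparc, Vasn, Setd7, Itch and Rnf103 (by likeness) and Acan, Col2a1, Igfbp1, Igfals, Ins2, Insr, Insrr, Adam28, H19, Airn and Polr2b were named outside this rule, after their values were seen. So were Ins1, a pathway gene at 0, and the markers Col1a1, Col1a2, Col3a1 and Col25a1, which were not called. The members and lists were chosen with earlier results of these data known. Promoter windows and the RefSeq starts they precede came from RefSeq (GRCm38.p6). The starts and exons of the deposited isoforms, and strands, came from GENCODE M21. Figures were drawn with matplotlib 3.10.9.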

Additional observations from a re-analysis of the deposited data

Results flagged for a closer look

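Each gene was examined for a library far from the others of its group, in 20 groups of 6 libraries, and chance gives such a library in about 1 of 20 groups. There were 2. In mutant 4, Igfbp3 was at 222 CPM, where the nearest mutant library had 164 CPM, a gap of 0.763 of the group's range. In mutant 3, Igfbp7 was at 63.7 CPM, where the nearest mutant library had 75.8 CPM, a gap of 0.649 of the range.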

How the results depend on the processing

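Across 26 alternatives, Igf1r, Igf2r, Igfbp2, Igfbp3 and Igfbp7 kept their direction. The number of the 10 genes called, 0 in the main analysis, was 1 with DESeq2, with the library total, with the replicate block and without control 0 and mutant 0, and each time the gene was Igf2r (of all genes, 11.4%, 6.66%, 7.04% and 6.64% were called there). Their log2 fold changes for Igf2r were 0.20, 0.22, 0.20 and 0.23, with adjusted p of 0.0167, 0.0362, 0.00986 and 0.0461. It was 4 without control 0 and control 3 (added after seeing the data). Leaving out single libraries gave 0 to 1, and 1 without control 0, control 2 or mutant 5, where Igf2r had adjusted p of 0.0266, 0.0238 and 0.0459. The labels do not state whether the numbers mark pairs, and the main fit did not take them as pairs. Same-numbered libraries deviated together with r of -0.06 to 0.30, over 0.1 in 2 of 6 pairs. Yet 4 of 6 controls correlated best with the mutant library of their own number, so these values do not settle the choice. The block called 1073 genes in all, against 1075 without it. Igf2r passed with the block and not without it (edgeR adjusted p 0.00986 and 0.0528).

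The 656 higher genes became 283 at FPKM of at least 5 and 379 without the libraries with high Xist, and 485 to 694 without single libraries. The 419 lower genes became 807 with DESeq2, 192 at FPKM of at least 5, 214, 216 and 216 with limma (pseudocounts 0.1, 1 and 5), 144 without the libraries with high Xist, and 197 to 443 without single libraries.

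Signs turned for Igf1 to 0.0083 with the Y-linked covariate, 0.0497, 0.0323 and 0.00355 with limma, 0.0531 with the block, 0.0407 without both libraries numbered 0 and 0.42 without controls 0 and 3, with -0.15 to 0.18 without single libraries. For Igf2 the same settings gave 0.0289, then 0.11, 0.11 and 0.10 with limma, 0.12, 0.0772 and 0.52, with -0.14 to 0.25. Without both libraries numbered 0, Igfbp4 turned to 0.00121 and Igfbp6 to 0.00616; without controls 0 and 3, Igfbp4, Igfbp5 and Igfbp6 turned to 0.18, 0.0627 and 0.19. Without single libraries Igfbp4 gave -0.10 to 0.0894, Igfbp5 -0.0856 to 0.00716 and Igfbp6 -0.18 to 0.0222. The cause was not tested.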

Other observations

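Values outside the comparison concern low rows and a gene listed in 2 rows. Adam28, a metalloprotease whose human form cleaves IGFBP3, missed the filter but its groups did not overlap, with 0.514 ± 0.138 CPM in control and 2.39 ± 0.648 CPM in mutant (SD, n = 6). In the fit with no filter its log2 fold change was 2.19 (SE 0.219) with an edgeR adjusted p of 1.59e-05; it was singled out after its values were seen. Acan, a proteoglycan gene of cartilage, also missed the filter and was at 40.8 CPM in control 3 and 32.5 CPM in control 0, against 1.44 to 3.31 CPM in the other 4 controls and 2.39 to 14.0 CPM in mutant libraries. Col2a1, the collagen gene of cartilage, did not follow it, with 48.1 and 43.6 CPM in controls 3 and 0 and 42.3 to 53.4 CPM over all 12 libraries. The per-library table lists H19 in 2 rows, and all values above come from the row with counts, since the other was near 0.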
